A study of Homo sapiens with 21 samples.

Results

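Open chromatin of TREM2 knockout microglia-like cells was compared with that of SORL1 knockout microglia-like cells, using the 3 ATAC-seq libraries titled TREM2-KO and the 3 titled SORL1-KO, 6 of the 21 libraries of the series. In ATAC-seq a transposase cuts and tags accessible DNA, and each library is represented here by its list of called peaks. Both knockouts were made by CRISPR/Cas9 editing of H9, a widely used line of human embryonic stem cells, and microglia-like cells were derived from each by way of blood progenitors, with 28 days of differentiation before 80000 cells were sorted. The other 15 libraries, 3 each, came from the TREM2-R47H, SORL1-A528T, CD33 SNP and INPP5D SNP lines and from unedited WT cells, and enter here through descriptions and through the spread that the tests per gene, chromosome and bin share. The libraries titled SORL1-A528T carry TREM2-KO as their genotype label, and are called here by their title. The protocol lists TREM2 KO and the stop-codon allele SORL1 R744X among homozygous edits of screened clones. The labels do not tie the title SORL1-KO to R744X or give the number of clones behind a line. Whether the 3 libraries of a line were differentiated separately is not stated, and the spread that each p-value rests on may be technical.

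TREM2 is a lipid-sensing receptor on the surface of microglia that pairs with the adaptor TYROBP and signals through the kinase SYK and the phospholipase PLCG2, supporting lipid uptake, survival and the response to damage. SORL1 (SORLA) is a VPS10-domain receptor that acts with the retromer complex to carry cargo, including the amyloid precursor protein, out of endosomes. Both genes are risk genes for Alzheimer's disease, one acting at the cell surface and the other in the endosome.

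Joining peaks that share 1 bp over the 6 lists gave 129301 regions (median width 689 bp), and 40100 of them (31.0%) were called in all 6 libraries. The peak lists held 70130, 67861 and 102891 peaks in TREM2-KO replicates 1, 2 and 3, and 84005, 58237 and 84066 in SORL1-KO replicates 1, 2 and 3. Depth followed the replicate number: TREM2-KO had 60.6, 15.8 and 49.0 M tags and SORL1-KO had 63.9, 12.8 and 47.6 M. The cells carried the calls of microglia in both knockouts. Of 23 homeostatic microglia genes, 17 had a peak within 1 kb of a gene end in all 6 libraries, among them P2RY12, CX3CR1, CSF1R, MERTK and C1QA, while TMEM119, SALL1 and SIGLEC8 had none in any. Of 14 pluripotency genes none had such a peak in all 6 and 7 had none in any, POU5F1, NANOG and LIN28A among them, where 46.0% of all genes had one in all 6. The other 7 had some: SOX2 and DNMT3B in 2 TREM2-KO and 3 SORL1-KO libraries, UTF1 in 2 and 2, PRDM14 in 1 and 2, SALL4 in 1 and 1, ZFP42 in 2 and 0 and L1TD1 in 0 and 2.

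Among all regions, 413 (0.319%) were called in 3 of 3 TREM2-KO libraries and in none of SORL1-KO, and 410 (0.317%) in none of TREM2-KO and in 3 of 3 of SORL1-KO. Gene ends that carried such a region included CAT, which encodes catalase, the peroxisomal enzyme that breaks down hydrogen peroxide, and CRYZ, which encodes a quinone reductase known as zeta-crystallin. They also included H2BC3 and H3C3, neighbouring genes of the core histones H2B and H3 in the histone cluster of chromosome 6. A further one was PCDHA2, a clustered protocadherin. The promoters of these 5 genes, 250 bases before and 50 after the gene start, are printed because each lies whole within a region called in 1 knockout and not in the other. The sequences are from RefSeq (GRCh38.p14), 5′ to 3′ on the gene's strand, with matches to the searched motifs in capitals.
CAT, chr11:34438684-34438983, plus strand: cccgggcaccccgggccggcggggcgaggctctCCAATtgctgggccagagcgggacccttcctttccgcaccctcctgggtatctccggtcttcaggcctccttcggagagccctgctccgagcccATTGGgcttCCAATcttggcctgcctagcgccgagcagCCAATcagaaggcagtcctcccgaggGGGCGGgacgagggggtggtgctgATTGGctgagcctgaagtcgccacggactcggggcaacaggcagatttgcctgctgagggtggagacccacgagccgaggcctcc
CRYZ, chr1:74733001-74733300, minus strand: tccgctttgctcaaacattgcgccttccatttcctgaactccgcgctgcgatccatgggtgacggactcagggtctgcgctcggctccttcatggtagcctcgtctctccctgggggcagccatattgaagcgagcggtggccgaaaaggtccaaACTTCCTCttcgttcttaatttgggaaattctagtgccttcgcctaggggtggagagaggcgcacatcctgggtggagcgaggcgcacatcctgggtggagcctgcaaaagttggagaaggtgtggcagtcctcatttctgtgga
H2BC3, chr6:26043664-26043963, minus strand: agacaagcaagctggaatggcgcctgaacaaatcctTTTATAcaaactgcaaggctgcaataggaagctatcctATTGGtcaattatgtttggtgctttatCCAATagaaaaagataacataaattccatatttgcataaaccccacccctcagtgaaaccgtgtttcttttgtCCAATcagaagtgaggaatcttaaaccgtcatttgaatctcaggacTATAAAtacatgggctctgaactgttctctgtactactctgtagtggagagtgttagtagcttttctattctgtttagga
H3C3, chr6:26045134-26045433, plus strand: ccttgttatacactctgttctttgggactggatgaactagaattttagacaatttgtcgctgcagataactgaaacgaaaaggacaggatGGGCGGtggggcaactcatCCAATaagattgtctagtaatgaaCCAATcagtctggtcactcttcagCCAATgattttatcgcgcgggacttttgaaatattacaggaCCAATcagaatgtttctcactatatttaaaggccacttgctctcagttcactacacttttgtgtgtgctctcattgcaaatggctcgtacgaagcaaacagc
PCDHA2, chr5:140794602-140794901, plus strand: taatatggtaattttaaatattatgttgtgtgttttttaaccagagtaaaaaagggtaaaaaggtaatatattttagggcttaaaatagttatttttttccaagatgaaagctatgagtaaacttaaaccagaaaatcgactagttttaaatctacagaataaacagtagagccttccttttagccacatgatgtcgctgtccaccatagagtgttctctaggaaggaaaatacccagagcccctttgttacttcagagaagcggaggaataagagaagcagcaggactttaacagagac

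The capitals mark CCAAT (the CCAAT box, CAT, H2BC3 and H3C3), GGGCGG (the GC box, CAT and H3C3), TATAAA (the TATA box, H2BC3) and GAGGAAGT (a site for the myeloid factor PU.1, CRYZ), each read on both strands. CCAAT stood in 34.6% of 35116 RefSeq promoters of the same length, GGGCGG in 45.0%, TATAAA in 11.5% and GAGGAAGT in 2.59%. CCGGAAG (ETS), TGANTCA (AP-1), TGACGTCA (CRE), CACGTG (CLEAR), TGACNNNGC (antioxidant response) and the NRF1 motif, searched in the same way, were not in these 5 windows, and the PCDHA2 window held none of the motifs searched. Their shares of all promoters were 10.3%, 7.71%, 1.85%, 7.26%, 13.3% and 5.78%. The CAT promoter had 68.0% G and C and 20 CpG dinucleotides, CRYZ 57.0% and 17, H2BC3 38.7% and 3, H3C3 42.0% and 8, and PCDHA2 34.3% and 3, beside medians of 58.7% and 14 over all promoters. A match is a description of the sequence.

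At the CAT gene end (chromosome 11, 34438471 to 34439660) peaks covered 1190, 664 and 922 bp in TREM2-KO, and no peak was called in the 3 SORL1-KO libraries. Each of the 15 remaining libraries called it, so SORL1-KO was the line without the call. The other 5 regions nearest to CAT did not show this pattern: over its 6 regions TREM2-KO made 5, 4 and 6 calls and SORL1-KO 5, 4 and 5. At the CRYZ gene end (chromosome 1, 74732447 to 74734300) no peak was called in TREM2-KO, and peaks covered 1655, 1716 and 1724 bp in SORL1-KO. All 15 other libraries called this region too, so here TREM2-KO was the line without the call. The CRYZ region stood at a median of 97.0 on the file-order scale, on which 100 is the first peak of a list, and CAT at 79.8, and lists run broadly from stronger to weaker peaks. Over the 5 CRYZ regions TREM2-KO made 0, 2 and 4 calls and SORL1-KO 3 in each library.

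The adjoining H2BC3 and H3C3 regions had no peak in any TREM2-KO library. In SORL1-KO, peaks covered 1142, 1079 and 1165 bp at H2BC3 (chromosome 6, 26043150 to 26044363) and 922, 769 and 790 bp at H3C3 (chromosome 6, 26044874 to 26045857). The INPP5D SNP line called both in 3 of 3 libraries and WT in 3 and 2, whereas TREM2-R47H, SORL1-A528T and CD33 SNP called neither in any library. The rest of the histone cluster did not follow: of 33 gene-end regions of the 55 histone genes on chromosome 6, 30 were called in all 6 libraries. The flanking H2AC4 region, for example, held 3004, 2055 and 2941 bp in TREM2-KO and 3030, 2708 and 2869 bp in SORL1-KO. This histone set was chosen after its values were seen.

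**Figure D1:**
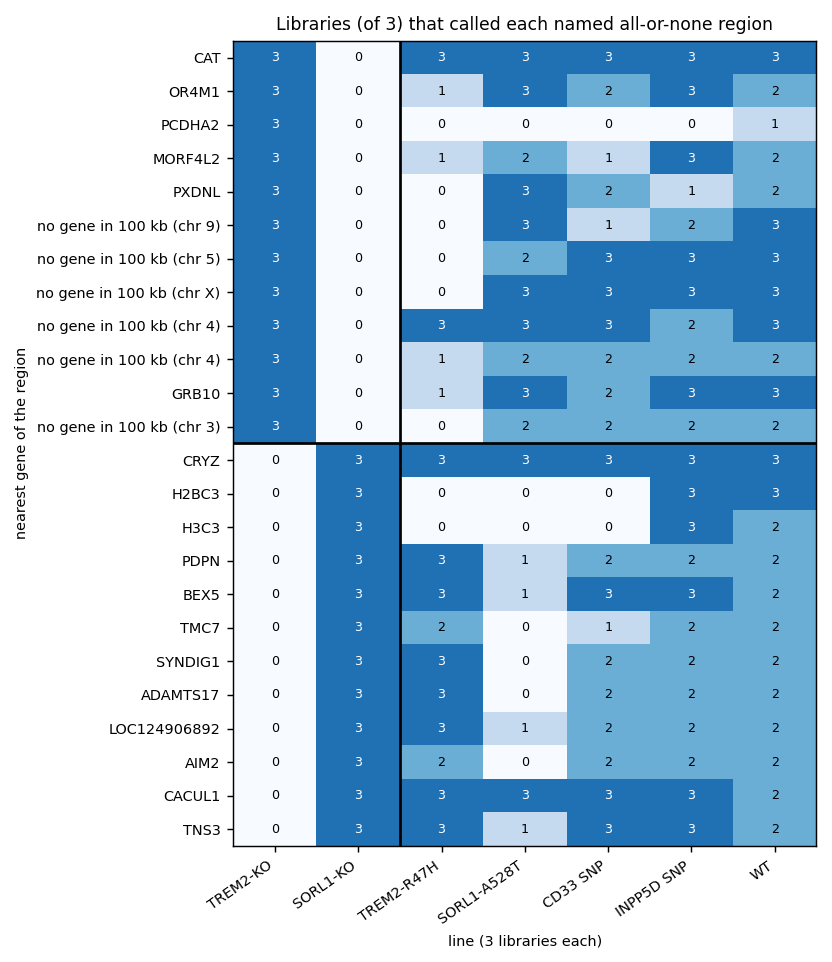
Number of libraries, of 3, that called each named all-or-none region in each of the 7 lines (columns), with regions in rows by their nearest gene and the 12 TREM2-KO-only regions above the 12 SORL1-KO-only regions. CAT and CRYZ were called in each of the 15 remaining libraries, PCDHA2 in 1 and H3C3 in 5.

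Other named regions of TREM2-KO lay at OR4M1 (an olfactory receptor), PCDHA2, MORF4L2 (a chromatin-associated MRG-domain protein), PXDNL (a peroxidasin-like protein) and GRB10 (an adaptor of the insulin receptor). The PCDHA2 region (chromosome 5, 140794500 to 140795761) held 934, 938 and 1262 bp in TREM2-KO and no peak in SORL1-KO, and 1 WT library was the only other one to call it. The GRB10 region inside the gene (chromosome 7, 50768073 to 50768984) held 501, 763 and 912 bp in TREM2-KO and none in SORL1-KO, and GRB10 had a further TREM2-KO-only region at its gene end. The MORF4L2 region was no longer all-or-none when regions were merged over all 21 lists. When peaks had to cover 50% of a region, those at OR4M1, in AIM2 and of chromosomes 3 (140822492) and 4 (159946019) with no gene nearby kept their call in 2 of the 3 libraries. Of the 12 named TREM2-KO regions, 6 had no gene within 100 kb. One of them (chromosome X, 84656075 to 84656738) was called in 3 of 3 libraries of every line except SORL1-KO and TREM2-R47H, where no library called it.

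SORL1-KO-only regions lay at the gene ends of PDPN (podoplanin, the surface ligand of the platelet receptor CLEC-2), BEX5 and TMC7. The PDPN region (chromosome 1, 13583647 to 13585769) held no peak in TREM2-KO and 2123, 1186 and 1406 bp in SORL1-KO, with 10 of the 15 other libraries calling it. Inside AIM2, the cytosolic DNA sensor of an inflammasome, a region (chromosome 1, 159084010 to 159085997) held no peak in TREM2-KO and 1355, 501 and 1988 bp in SORL1-KO, with calls in 8 of the 15. Further SORL1-KO-only regions lay in or near SYNDIG1, ADAMTS17, TNS3, CACUL1 and LOC124906892. SYNDIG1, which acts in synapse development, held 3 of them among its 17 regions, the most of any gene. Its depth-adjusted call, a measure explained with the test per gene, differed by -0.33 (limma adjusted p = 0.192, and 0.0494 with the replicate block).

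Most regions of both sets stood low in the lists and were scattered over many genes. Their median place in the file order was 26.9 for TREM2-KO only and 23.6 for SORL1-KO only, 66 and 100 of them stayed all-or-none when all lists were shortened to 58202 peaks, and they lay nearest to 268 and 347 genes. The 2 sets differed in place. TREM2-KO-only regions lay outside gene spans in 57.1% of cases and at gene ends in 3.39%, and SORL1-KO-only regions in 44.9% and 6.83%, against 46.9% and 11.3% of all regions. Chromosomes 17, 19 and 22 held 1, 2 and 2 TREM2-KO-only regions (0.0284, 0.0747 and 0.141% of their regions) and 14, 19 and 9 SORL1-KO-only regions (0.398, 0.709 and 0.633%). Chromosomes 5 and X held 43 and 29 TREM2-KO-only (0.506 and 0.564%) and 16 and 7 SORL1-KO-only regions (0.188 and 0.136%). Over all chromosomes the shares were 0.319% and 0.317%. No test was made of these counts.

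Calls of both sets also varied among the other lines. TREM2-R47H called 28.7% of the TREM2-KO-only regions and 66.7% of the SORL1-KO-only regions, summed over its 3 libraries. The libraries titled SORL1-A528T, whose genotype label is TREM2-KO, called 40.5% of the TREM2-KO-only regions and 14.4% of the SORL1-KO-only regions. For these libraries a pairing by edited gene cannot be told, since by that label they would belong with TREM2-KO and by their title with SORL1. Regions called in 3 of the 6 libraries, whatever the line, were called at 50.5% in TREM2-R47H and 31.3% in SORL1-A528T, whose lists were the shortest for each replicate number. For all regions the shares were 56.4% and 45.4%. WT called 53.5% of the TREM2-KO-only regions and 47.2% of the SORL1-KO-only regions, with 56.8% of all regions. In TREM2-R47H each library called more of the SORL1-KO-only regions, and in SORL1-A528T each called more of the TREM2-KO-only regions. Over regions merged from all 21 lists, TREM2-KO against SORL1-KO had 810 all-or-none regions and ranked 9 among the 21 pairs of lines, between 2356 (SORL1-A528T against TREM2-R47H) and 176 (TREM2-KO against WT). TREM2-R47H had 1057 such regions against TREM2-KO and 527 against SORL1-KO. SORL1-A528T had 888 against TREM2-KO and 2027 against SORL1-KO.

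**Figure D2:**
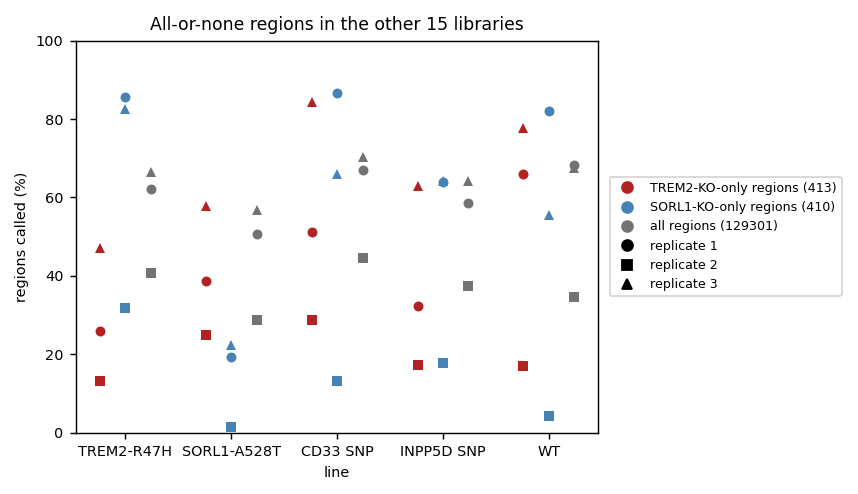
Percent of the TREM2-KO-only regions (red), the SORL1-KO-only regions (blue) and all regions (grey) called in each of the 15 libraries of the other lines, with the marker shape giving the replicate. TREM2-R47H libraries called 13.1 to 47.2% of the TREM2-KO-only and 31.7 to 85.6% of the SORL1-KO-only regions, and SORL1-A528T libraries 24.9 to 57.9% and 1.46 to 22.4%.

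Both edited loci carried peaks in both knockouts. The TREM2 gene end (chromosome 6, 41161670 to 41163617) was covered by 1798, 638 and 794 bp in TREM2-KO and by 1783, 1702 and 1595 bp in SORL1-KO, and a second TREM2 gene-end region was called in all 6 libraries. Over the 30 regions nearest to SORL1, TREM2-KO made 64 of 90 possible calls (71.1%) and SORL1-KO 61 (67.8%), a difference in depth-adjusted call of 0.0241 (SE 0.0582, limma adjusted p = 0.865). The depth-adjusted call is each region's call (1 or 0) less the average in that library over regions called in as many libraries, averaged by gene. Peak calls say nothing on whether the edits removed either protein. Near APOE, the lipid carrier that the series title names, TREM2-KO made 2, 1 and 1 calls over 5 regions and SORL1-KO 3, 1 and 5, or 26.7% and 60.0% of possible calls, beside 61.0% and 57.2% over all regions and 40.0% at APOE in WT. SORL1-KO replicate 3 held 5 of the 9 SORL1-KO calls. The APOE gene-end region was covered by 501 bp in TREM2-KO replicate 1 alone, and by 1220 and 501 bp in SORL1-KO replicates 1 and 3. APOE had too few regions for the test per gene.

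Per gene, 1 of 7069 genes passed the threshold between the knockouts in the test as first made. For each gene with at least 5 regions the depth-adjusted call was averaged and tested with limma over all 21 libraries in 7 groups, with Benjamini-Hochberg adjustment and a threshold of 0.05. No gene was higher in TREM2-KO (0.0%), and 1 was lower (0.0141%): KCNA6, a voltage-gated potassium channel. KCNA6 stood at -0.18, -0.35 and -0.31 in TREM2-KO and at 0.37, 0.44 and 0.07 in SORL1-KO, groups that did not overlap, a difference of -0.57 (SE 0.09, limma adjusted p = 0.0228). The calls behind it were few: 1, 0 and 2 of its 6 regions in TREM2-KO and 5, 4 and 3 in SORL1-KO. Of the 6 regions, 3 were called in 1 SORL1-KO library and in no other of the 21. These 3 entered the set through SORL1-KO alone, and without them KCNA6 falls below the minimum of 5 regions. Before adjustment 355 genes (5.02%) were higher and 606 (8.57%) lower in TREM2-KO at p below 0.05.

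The count of genes depended on how the libraries were combined. With the replicate number as a block, 6 genes (0.0849%) were higher and 37 (0.523%) lower in TREM2-KO. Without TREM2-KO replicate 1, 153 were higher and 295 lower. KCNA6 did not pass without TREM2-KO replicate 2 (limma adjusted p = 0.0874), TREM2-KO replicate 3 (0.196), SORL1-KO replicate 1 (0.183) or SORL1-KO replicate 2 (0.153). Without SORL1-KO replicate 1 another gene was lower, in the other 3 cases none passed, and without SORL1-KO replicate 3, 2 were lower. With regions merged over all 21 lists limma called no gene (KCNA6 adjusted p = 0.0569; 296 higher and 515 lower before adjustment). With the 6 libraries alone it called none either (smallest adjusted p = 0.662; 156 and 356 before adjustment). In the test as first made, regions came from these 6 lists while the spread was shared with the 15 other libraries. Those 15 could add no regions of their own.

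The other genes chosen by the naming rule did not pass the test and are given by their values. On the higher side stood FAM9B, a testis gene of chromosome X, with 0.22, 0.33 and 0.20 in TREM2-KO and -0.19, -0.10 and -0.09 in SORL1-KO (difference 0.37, SE 0.08, limma adjusted p = 0.126). SCN11A (a sodium channel), DNAH6 and DNAH11 (heavy chains of the ciliary motor dynein) and ASAH2 (neutral ceramidase, which cleaves ceramide) had differences of 0.27, 0.35, 0.27 and 0.41. That of SCN11A was 0.03 with lists of equal length, and that of DNAH11 was 0.17 without TREM2-KO replicate 2. On the lower side AGPAT4, which makes phosphatidic acid, stood at -0.20, -0.21 and -0.21 in TREM2-KO and at 0.12, 0.26 and 0.18 in SORL1-KO. It had 5, 4 and 9 of 15 regions called in TREM2-KO and 12, 10 and 13 in SORL1-KO, and its difference was -0.39 (SE 0.08, limma adjusted p = 0.126). AIM2 (-0.49), BTN3A2, a butyrophilin of T-cell regulation (-0.46), and AGO1, an argonaute of small-RNA silencing (-0.36), had adjusted p of 0.126, 0.126 and 0.168 by limma. The AIM2 difference was -0.25 with regions merged over all 21 lists, and that of AGO1 was -0.00162 with gene-end regions alone. With the replicate block, AGPAT4, AIM2, BTN3A2, AGO1, FAM9B, DNAH6 and DNAH11 passed, with limma adjusted p of 0.00965 (AIM2) to 0.0494 (DNAH6 and DNAH11). Of the 5 AIM2 regions, 1 (chromosome 1, 159086924 to 159087424) was called in SORL1-KO replicate 2 and in no other of the 21 libraries. Without it AIM2 falls below the minimum of 5 regions. Several of the 17 DNAH11 regions were called in TREM2-KO libraries alone of the 21, and so entered the set through TREM2-KO.

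**Figure D3:**
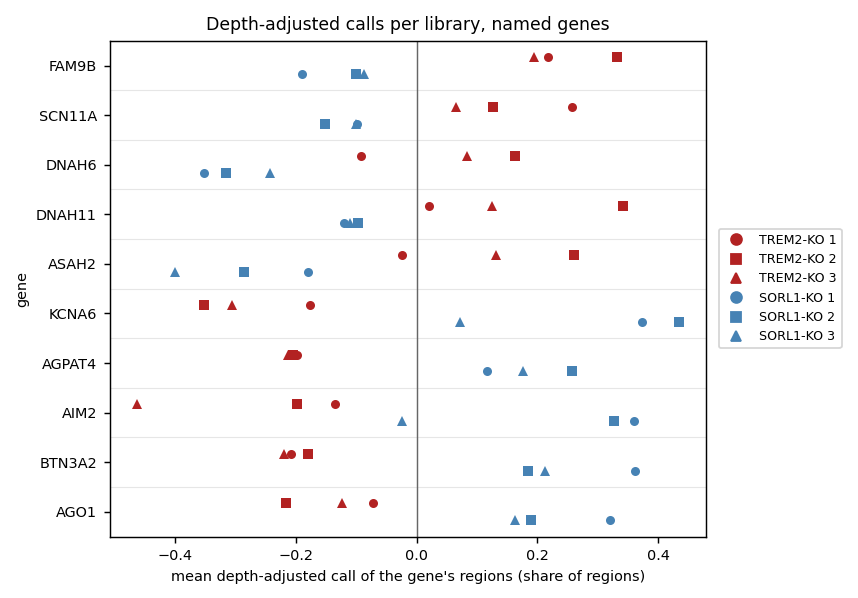
Mean depth-adjusted call (x axis, share of a gene's regions) of the 10 genes chosen by the naming rule (rows) in each TREM2-KO library (red, upper points) and SORL1-KO library (blue, lower points), with the marker shape giving the replicate. The groups do not overlap for any of the 10, which is part of the rule, and KCNA6 is the gene that passed the test.

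A pair of genes with small p on the lower side was picked after its values were seen. SIGLEC7, an inhibitory receptor for sialic acid, had 2, 1 and 2 of 6 regions called in TREM2-KO and 6, 4 and 4 in SORL1-KO (difference -0.52, limma adjusted p = 0.168, and 0.0376 with the replicate block). CD1B, which presents lipid antigens, had 2 of 5 in each TREM2-KO library and 5, 3 and 3 in SORL1-KO (-0.40, limma adjusted p = 0.168, and 0.0245 with the block).

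Gene lists were described by counts and medians, beside the median of all 7069 genes, -0.0167, of which 54.8% were negative. No member of the 22 lists passed the adjusted threshold, where 1 of all genes did. TREM2-KO-only regions lay nearest to CAT, EEF1A1, JUN and PIK3R1 among list genes, and SORL1-KO-only regions nearest to CRYZ, ATF3, SYN1, PAX6, PTK2B, FERMT2, KEAP1, OLFML3, CCL20, VWF, CCL2, VAV3, CPA3 and SNX5. Each list held at most 1 of the former and 2 of the latter, among 49 (pluripotency) to 382 (Alzheimer risk loci) regions. Of all 104193 regions near a gene, 282 and 364 were of these kinds, and of all regions 0.319% and 0.317%. The uneven names are not read as a result about the lists. In the TREM2 signalling list, 15 of 17 tested genes were negative (median -0.0663). By replicate number 9, 12 and 14 were negative, with median differences of -0.00236, -0.0589 and -0.0567, so replicate 1 had little part in this. Of the 17, 1 had an unadjusted p below 0.05, beside 8.57% of all genes on the lower side. It was VAV1, an exchange factor downstream of SYK. VAV1 was at 0.14, -0.34 and -0.27 in TREM2-KO and at -0.02, 0.28 and 0.12 in SORL1-KO, so replicate 1 went against the other 2. In the list of disease-associated and lipid-handling microglia, 15 of 16 genes were negative (median -0.104), and CTSL, PLIN2 and SPP1 had unadjusted p below 0.05. These are a lysosomal protease, the coat protein of lipid droplets and the secreted protein osteopontin, with differences of -0.18, -0.19 and -0.15. The gene ends of this list were called in 88.0, 56.0 and 84.0% of its 25 genes in TREM2-KO and in 88.0, 76.0 and 88.0% in SORL1-KO, so the gap was widest in replicate 2, the shallow libraries. Over all genes the shares were 57.7, 49.1 and 58.6% in TREM2-KO and 59.8, 52.4 and 58.0% in SORL1-KO.

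On the side of SORL1, the list of VPS10 receptors and retromer had 7 of 16 genes negative and a median of 0.0242. SNX27, the sorting nexin that links cargo to retromer, stood at -0.07, -0.19 and -0.22 in TREM2-KO and at 0.10, 0.03 and 0.24 in SORL1-KO (difference -0.28, limma adjusted p = 0.202). GGA1, an adaptor for SORL1 at the trans-Golgi, had -0.32 (limma adjusted p = 0.366) with groups that overlapped. SNX5, a retromer-associated sorting nexin, had a SORL1-KO-only region outside its gene. Endosome maturation had 7 of 12 negative (median -0.027), the lysosome and TFEB list 12 of 15 (-0.0801), and APP processing 10 of 12 (-0.113), where APLP2 and MAPT had differences of -0.17 and -0.34. The positive median of the receptor and retromer list came from replicate 1: by replicate number its median difference was 0.0406, -0.0132 and -0.0451, and 12 of 16 genes were negative in number 3.

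Homeostatic microglia genes had 11 of 14 negative (median -0.0928), and by replicate number 7, 11 and 11. For 4 of them p was below 0.05 before adjustment, all on the lower side, where 8.57% of all genes had such a p. OLFML3, a secreted protein marking microglia, stood at -0.13, -0.14 and -0.13 in TREM2-KO and at 0.20, 0.23 and 0.08 in SORL1-KO (difference -0.30, SE 0.07, limma adjusted p = 0.192). Both its gene-end regions were called in all 6 libraries. Of its distal regions one (chromosome 1, 114002754 to 114004919) held 0, 0 and 501 bp in TREM2-KO and 1316, 976 and 2116 bp in SORL1-KO, and another was SORL1-KO only. GPR34, a receptor for lysophosphatidylserine, had 1, 1 and 3 of 5 regions called in TREM2-KO and 4, 3 and 3 in SORL1-KO (-0.35, limma adjusted p = 0.202). Its main gene-end region (chromosome X, 41686432 to 41689447) was wide in all 6, with 2193, 2071 and 2609 bp in TREM2-KO and 2365, 2166 and 2018 bp in SORL1-KO. Another GPR34 region, 41693487 to 41695277, was called in SORL1-KO replicates 1 and 3. The region next to that, 41695370 to 41696002, was called in TREM2-KO replicate 3 alone of the 6. With regions merged over all 21 lists GPR34 had too few regions to be tested. MERTK, a receptor for dying cells, had -0.23 (limma adjusted p = 0.234).

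Among the remaining macrophage lists, complement and phagocytosis had 13 of 18 negative (median -0.106) and myeloid transcription factors 14 of 20 (-0.0557). ATF3, a stress-induced factor, stood at -0.24, -0.19 and -0.17 in TREM2-KO and at 0.06, 0.05 and 0.32 in SORL1-KO (difference -0.35, limma adjusted p = 0.196, and 0.0494 with the replicate block). It also had a SORL1-KO-only region outside the gene. CEBPA, a factor of myeloid fate, had -0.25 and RUNX1, a factor of blood formation, -0.24. Alzheimer risk loci had 14 of 24 negative (-0.0163, the level of all genes), with ADAM10, FERMT2 and SCIMP at -0.26, -0.28 and -0.30. Cholesterol and sterol control had 10 of 16 negative (-0.0515), with the scavenger receptor CD36 at 0.16. Antioxidant and peroxide defence, the list that holds CAT and CRYZ, had 6 of 13 negative (0.00929), and CAT and CRYZ as genes had 0.06 and -0.23 (limma adjusted p = 0.724 and 0.477). NF-kB and cytokines had 9 of 18 (-0.00843) and interferon response 3 of 6 (-0.0083).

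Markers of other cell types and housekeeping genes were spread on both sides. Medians were -0.137 for perivascular macrophages (4 genes tested), -0.0597 for endothelium (9), -0.0621 for housekeeping (5), -0.0315 for pluripotency (5), -0.0233 for lymphoid cells (8) and -0.0095 for erythroid, megakaryocyte and mast cells (3). They were 0.0421 for mesenchyme and matrix (13) and 0.0634 for neural markers (9). Their part in the values above was not tested. The negative medians of the homeostatic and disease-associated lists came mainly from replicates 2 and 3. In the disease-associated list the medians were 0.0138, -0.155 and -0.11 in TREM2-KO and 0.0697, 0.0652 and 0.0387 in SORL1-KO. In the homeostatic list they were 0.0256, -0.138 and -0.0652 in TREM2-KO and 0.0525, 0.000459 and 0.0434 in SORL1-KO.

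**Figure D4:**
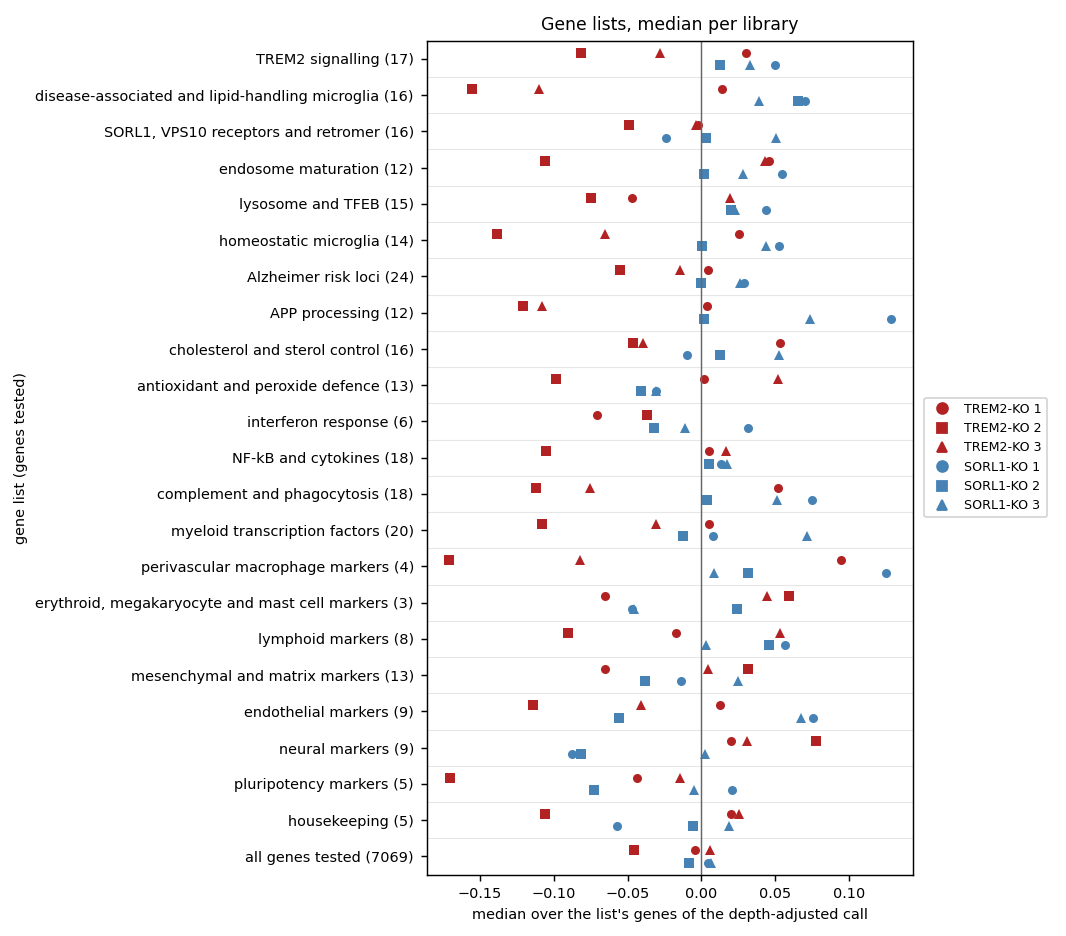
Median depth-adjusted call of each of the 22 gene lists and of all genes tested (rows, with the number of genes tested) in each TREM2-KO library (red, upper points) and SORL1-KO library (blue, lower points), with the marker shape giving the replicate. In the homeostatic, disease-associated and complement lists TREM2-KO replicates 2 and 3 lie below 0 and below all SORL1-KO libraries, while TREM2-KO replicate 1 lies above 0.

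Over whole chromosomes the depth-adjusted calls set TREM2-KO replicates 2 and 3 apart from the other 4 libraries. On chromosome 19 the depth-adjusted call was 0.127, -0.159 and -0.158 in TREM2-KO and 0.102, 0.03 and 0.0244 in SORL1-KO. On chromosome 22 it was 0.188, -0.198 and -0.21 in TREM2-KO and 0.155, -0.000397 and 0.032 in SORL1-KO. Chromosome 4 ran the other way, with -0.0598, 0.0956 and 0.0743 in TREM2-KO and -0.0638, -0.00342 and -0.0231 in SORL1-KO. The replicate 1 libraries of both knockouts thus lay together, on the opposite side of 0 from TREM2-KO replicates 2 and 3. No chromosome passed the limma test in either direction (0.0% of 23), and before adjustment 1 was higher (4.35%) and 2 were lower (8.7%) at p below 0.05. With the replicate number as a block 7 were higher (30.4%) and 11 lower (47.8%), and without TREM2-KO replicate 1, 9 were higher and 10 lower. With the block but the 6 libraries alone none passed.

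**Figure D5:**
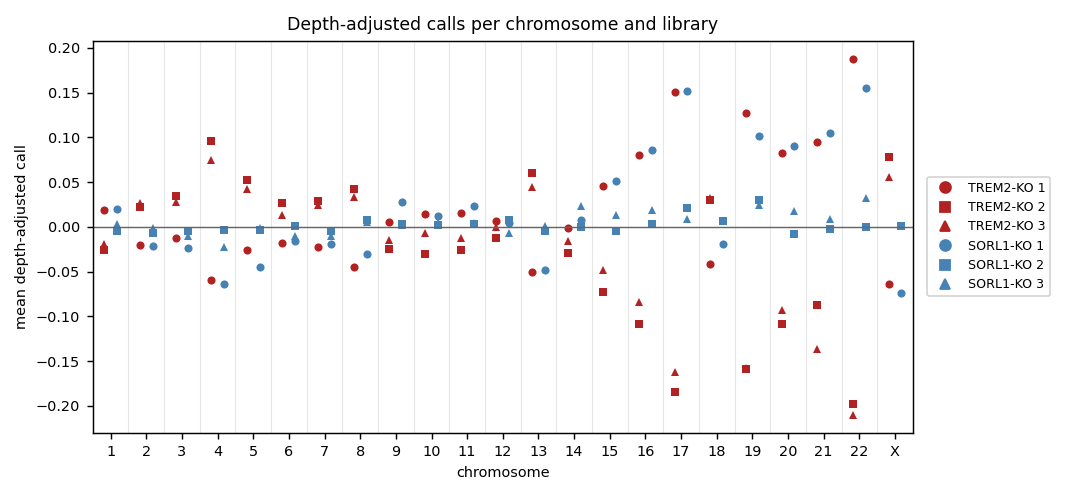
Mean depth-adjusted call (y axis) of the regions on each chromosome (x axis) in each TREM2-KO library (red, left points) and SORL1-KO library (blue, right points), with the marker shape giving the replicate. TREM2-KO replicates 2 and 3 lie below 0 on chromosomes 15 to 17 and 19 to 22 and above 0 on chromosomes 4, 5, 13 and X, where both replicate 1 libraries lie on the other side.

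The same shift ran along gene density. In 292 bins of 5 Mb with many genes (median 40) the median depth-adjusted call was 0.0306, -0.0698 and -0.0337 in TREM2-KO and 0.0385, -0.000626 and 0.0116 in SORL1-KO. In 299 bins with few genes (median 15) it was -0.0652, 0.0866 and 0.0619 in TREM2-KO and -0.065, 0.000383 and -0.00898 in SORL1-KO. The difference was negative in 72.3% of the gene-rich bins and in 18.7% of the gene-poor ones. In replicates 2 and 3 the TREM2-KO medians lay below those of SORL1-KO in gene-rich bins and above them in gene-poor bins, and in replicate 1 the medians of the knockouts differed by under 0.01. Of called regions, 40.48, 45.88 and 45.54% lay outside gene spans in TREM2-KO and 41.44, 40.37 and 42.06% in SORL1-KO, means of 43.97 ± 3.02 and 41.29 ± 0.855% (SD, n = 3 each; exact permutation p = 0.3, two-sided, where 0.1 is the smallest that 3 against 3 allow). The share of tags in peaks was 45.71, 68.0 and 71.57% in TREM2-KO and 46.43, 69.2 and 58.44% in SORL1-KO, lowest in replicate 1 of both, and its part in the shift was not tested.

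No bin passed the test (0.0% of 591 in either direction), and before adjustment 42 were higher (7.11%) and 35 lower (5.92%) at p below 0.05. With the replicate block 118 were higher (20%) and 92 lower (15.6%), without TREM2-KO replicate 1 the counts were 195 and 146, and with the block but the 6 libraries alone none passed. Some named genes lay in bins with small p, picked here after their values were seen. The bin of chromosome 20 that holds SYNDIG1 (20000001 to 25000000) stood at -0.0259, -0.0803 and -0.0398 in TREM2-KO and at 0.0298, 0.0194 and 0.0621 in SORL1-KO (limma adjusted p = 0.124, and 0.0117 with the block). The bin of chromosome X that holds GPR34 (40000001 to 45000000) stood at -0.0543, -0.0705 and -0.0306 in TREM2-KO and at 0.0141, 0.0356 and 0.0841 in SORL1-KO (limma adjusted p = 0.124, and 0.0117 with the block). In both bins the groups did not overlap, and all 3 TREM2-KO values lay below 0. A pick by small p favours such bins, so no conclusion is drawn here on the split of replicate 1 from the others.

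One stretch of chromosome X (5000001 to 10000000), which holds FAM9B, STS (steroid sulfatase) and TBL1X (a subunit of the NCoR corepressor), had a depth-adjusted call of -0.00526, 0.0693 and 0.146 in TREM2-KO and of -0.0512, -0.0354 and -0.0326 in SORL1-KO, groups that did not overlap (difference 0.11, limma adjusted p = 0.319, and 0.0148 with the block). Of its 200 regions TREM2-KO called 101, 116 and 182, and SORL1-KO 112, 78 and 114, or 66.5% and 50.7% of possible calls, beside 61.0% and 57.2% over all regions. TREM2-KO replicate 3, which has the longest list of the 21, made the most calls there, and the 15 other libraries called 66 to 137. The 200 regions were merged from the lists of the knockouts. Peaks of replicate 3 alone thus count as regions, while the 15 other libraries could add none. At TBL1X, 12, 12 and 27 of 29 regions were called in TREM2-KO and 9, 5 and 8 in SORL1-KO (difference 0.25, SE 0.06, limma adjusted p = 0.202). The stretch held 5 TREM2-KO-only regions and no SORL1-KO-only region. FAM9B had 8, 9 and 10 of 10 regions called in TREM2-KO and 5, 4 and 6 in SORL1-KO.

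Where both knockouts called a region, its width did not differ at the threshold. Widths were compared as log2 of the bp covered, centred on each library's median, over the 40100 regions called in all 6 libraries, by limma on these libraries. None passed in either direction (0.0%), and before adjustment 594 were wider (1.48%) and 749 narrower (1.87%) in TREM2-KO at p below 0.05. Without TREM2-KO replicate 1, 49 were wider and 59 narrower, and without SORL1-KO replicate 3, 1 was wider. At the gene end of HMGA2, a chromatin architectural protein, peaks covered 3789, 2521 and 3428 bp in TREM2-KO and 1115, 643 and 1449 bp in SORL1-KO (log2 difference 1.68, SE 0.22, limma adjusted p = 0.0837). Inside CYBB, the catalytic subunit of the phagocyte NADPH oxidase, they covered 1313, 2125 and 3421 bp in TREM2-KO and 758, 501 and 650 bp in SORL1-KO (1.78, SE 0.29, limma adjusted p = 0.117). Inside STK39, a kinase of ion transport, they covered 1334, 1173 and 1311 bp in TREM2-KO and 501 bp in each SORL1-KO library. A cover of 501 bp is the smallest above 0 among the values given here, next to the set peak size of 500.

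On the narrow side, the FLRT2 gene end (a membrane protein of axon guidance) was covered by 923, 784 and 1296 bp in TREM2-KO and by 3165, 2048 and 4766 bp in SORL1-KO (log2 difference -1.66, SE 0.24, limma adjusted p = 0.0837). The gene end of IKBKE, a kinase of the interferon response, was covered by 763, 501 and 632 bp in TREM2-KO and by 1558, 1278 and 1618 bp in SORL1-KO (-1.22, SE 0.20, limma adjusted p = 0.117). The groups did not overlap at any of these 5 regions, as the naming rule requires. By location, the median log2 difference was -0.0136 at gene ends, 0.00764 inside gene spans and 0.0183 outside them.

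As whole peak sets, libraries of the same knockout were not detectably more alike than libraries of different knockouts. The share of covered base pairs in common (Jaccard index) was 0.506 ± 0.0338 within TREM2-KO and 0.564 ± 0.0828 within SORL1-KO (SD, 3 pairs each), and 0.546 ± 0.0692 between them (SD, 9 pairs). Within lines minus between lines gave -0.0111 (exact permutation p = 0.7, two-sided, 10 divisions of the libraries), and p = 1.0 by exact permutation within replicate numbers (4 divisions). Pairs of different knockouts with the same replicate number shared 0.586 ± 0.0682 (3 pairs) and those with other numbers 0.526 ± 0.0661 (6 pairs). TREM2-KO replicate 1 shared more with SORL1-KO replicate 1 (0.638) than with TREM2-KO replicate 2 (0.48) or 3 (0.544). Peak number, covered length, median width and the shares at gene ends and inside gene spans gave exact permutation p of 0.5 to 1.0, two-sided, over 3 against 3 libraries.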

How the data were processed

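The data were deposited peak lists of ATAC-seq libraries. The submitters' processing notes name cutadapt 1.18, STAR 2.7, HOMER 4.10 and DESeq2, the last with no stated use. Per the file headers, HOMER called each library alone in histone style with no input, peak size 500 and minimum distance 1000, keeping peaks 4.0 fold over the local 10000 bp at a p-value of 1.00e-04. The score column, as deposited, holds 1 throughout; the lists thus give starts and ends and no height. Any shift of reads for the transposase cut, and the genome build, are not given in the sources used here. Coordinates are those of the lists, counted from 1.

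Genes came from RefSeq GRCh38.p14 (19970 protein-coding genes). Of 39940 gene ends, 26.5% lay under regions called in all 6 libraries, and 3.15% and 3.37% after shifts of 10000 bp. Gene ends were taken with 1 kb on each side, and a region went to the nearest gene within 100 kb (80.6% of regions). Peaks on other chromosomes than 1 to 22 and X were left out (0.0856% of 467190). Motifs were searched on both strands, and overlapping matches share capitals.

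Fits used limma 3.58.1 in R 4.3.3, tried on simulated data. Samples were grouped by title. The libraries titled SORL1-A528T carry another genotype label (TREM2-KO) and were grouped by title, and a fit without them was tried. The members and gene lists (475 genes, 471 matched) were chosen with earlier results of these data known. Named regions were up to 12 per direction, first those kept with lists of equal length, gene ends first, then by file order. Named genes and widths were those past the threshold, otherwise the 5 smallest p per direction with groups that do not overlap. List members were named from up to 3 with an unadjusted p below 0.05 and those with an all-or-none region. The rule gave 6 promoters, of which the 5 lying within their regions are printed. Same-numbered libraries of the knockouts deviated together (correlations over genes 0.4, 0.187 and 0.138; over widths 0.266, 0.283 and 0.126). Other pairs had -0.31 to 0.233 over genes, where TREM2-KO 3 was closer to SORL1-KO 2 (0.233) than to its own number, and -0.264 to -0.00656 over widths. On these data, not on the labels, the numbers were taken to pair the libraries. Depth was 12.8 to 67.4 M tags per library, so a call absent in a shallow replicate 2 library may be a missed one, and no counts per region were used.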

Additional observations from a re-analysis of the deposited data

How the results depend on the processing

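Leaving out 1 library at a time moved the counts, chiefly without TREM2-KO replicate 1: genes higher in TREM2-KO ranged from 0 to 153 and lower from 0 to 295, wider regions from 0 to 49 and narrower from 0 to 59, higher chromosomes from 0 to 9 and lower from 0 to 10, and higher bins from 0 to 195 and lower from 0 to 146. Without SORL1-KO replicate 3, 1 width passed. TREM2-KO-only regions ranged from 469 to 4841 and SORL1-KO-only regions from 448 to 2246, as fewer libraries then have to agree. Differences of library values (TREM2-KO minus SORL1-KO) ranged from -6440 to 11070 peaks, -13.95 to 13.37 M tags, -2.06 to 11.76 percentage points of tags in peaks, -14.17 to 6.667 bp of median width and -8.513 to 8.698 covered Mb, and that of the Jaccard index from -0.0268 to 0.0264, and each of these changed sign with the library left out. No exact permutation p was below 0.2, which for the library values is the smallest that the test allows with 1 library left out.

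With the replicate number as a block, genes passing were 6 higher and 37 lower, chromosomes 7 and 11 and bins 118 and 92; it changed no call beyond these and the genes and bins given with it above. The block in the 6 libraries alone gave 0 genes, chromosomes and bins, a setting chosen after seeing the data, like regions merged over all 21 lists (0 genes). Genes passing lower were 2 with regions called in at least 2 libraries. KCNA6 had too few regions to be tested there, with lists of equal length or with at least 10 regions per gene. None passed lower with gene-end regions alone, the 6 libraries alone, no depth adjustment, lists of equal length and without the SORL1-A528T libraries. With at least 10 regions per gene 1 gene was higher (FAM9B) and 1 lower (AGPAT4). FAM9B just met that minimum, and 1 of its 10 regions (chromosome X, 9028946 to 9029446) was called in TREM2-KO replicate 3 alone of the 21 libraries. The cause of these changes in count was not tested. With lists of equal length SORL1-KO-only regions numbered 625 and TREM2-KO-only regions 474. Cover of at least 50%, peaks merged within 200 bp, quantile normalization, no centring, other region sets for widths and 2 Mb bins kept every count of calls within 1.5 times. Of values for named regions, genes and widths, none reversed. Lists hold calls and not heights, so graded differences below the calling threshold were not detectable.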
